A study of Arabidopsis thaliana with 10 samples.

Results

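The plastid genome of Arabidopsis thaliana encodes the core subunits of the photosynthetic apparatus, and 43 of these genes were followed here in leaves. A gene was taken where a probe set names it and no other gene, it lies on the plastid genome, its symbol starts with psa, psb, pet, atp or ndh or is rbcL, and its signal was 50 or more on at least 2 of the 10 arrays. All 43 genes with such a probe set met the signal condition, 40 of them on every array. The exceptions were ndhH, ndhF and petG, which were under 50 on some arrays. They are 43 of the 69 plastid genes with a probe set of their own, on an array of 22810 probe sets. By complex they are 5 genes of photosystem I, 15 of photosystem II, 6 of the cytochrome b6f complex, 6 of the ATP synthase, 10 of the NDH complex and rbcL. Both copies of ndhB share 1 probe set and were left out for that reason.

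Photosystem II and photosystem I drive electrons from water to ferredoxin, with the cytochrome b6f complex between them, and the ATP synthase uses the proton gradient that results. The NDH complex returns electrons from ferredoxin to the plastoquinone pool in cyclic flow around photosystem I, and Rubisco fixes carbon dioxide. Each of these complexes joins subunits made in the plastid to subunits made from nuclear genes, and many plastid genes are cotranscribed in long units that are later cut into shorter RNAs. Leaves that senesce dismantle their chloroplasts and export the nitrogen held in these proteins.

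Total RNA of fully expanded leaves was hybridised to Affymetrix arrays, 2 for each of 5 groups, all of them in the Columbia background and grown in compost at the same temperature and day length. The tested genotypes were NahG plants, which carry a bacterial salicylate hydroxylase, ein2 plants, known as ethylene-insensitive, and coi1 plants, known as jasmonate-insensitive, all at growth stage 6.0, together with wild type at stage 6.0 and wild type at stage 3.9. The labels call all 3 genotypes transgenic and give neither alleles nor the promoter that drives NahG. Stage 3.9 usually denotes the full-grown rosette and stage 6.0 the first open flower, so each comparison between them is a comparison of leaf and plant age.

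The wild type groups each held an array of stock N933 (array 1) and an array of stock N1644 (array 2). Nothing in the labels of the NahG, ein2 and coi1 arrays says that the 2 of a group are separate plants. These pairs may thus hold technical spread only. The spread behind each p-value was estimated over all 5 groups together. Every p-value, those of the stage comparison included, thus rests partly on these pairs and partly on the wild type pairs. One field of the stage 6.0 array of stock N1644 names the Col-0 line, and the coi1 arrays carry the stock code of the ein2 arrays. Between 9738 and 10835 probe sets reached a signal of 50 on an array. The 4 leaf markers that were tested, RCA and the light-harvesting genes LHCB4.1, LHCB4.2 and LHCB4.3, had mean signals between 114 and 5466 in every group, and the root marker PYK10, the only tested marker of other cell types, had mean signals of 20.0 to 107, the highest in NahG. A control probe set for 5S ribosomal RNA set 3 arrays apart: its signal was 2.11 and 2.22 in coi1 leaves and 3.62 on array 1 of wild type at stage 6.0, against 195 to 599 on the other arrays. Because RNA came from whole leaves, fewer plastids or cells and less RNA in each cannot be told apart.

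The first question was how the 43 genes differed with age in wild type leaves. Signals were compared as log2(signal + 16) after each array was scaled to the same trimmed mean, and a gene is said to have fallen where limma's adjusted p over all tested probe sets was under 0.05. At stage 6.0, 19 of the 43 genes had fallen and 0 had risen against stage 3.9, beside 17.2% of all 12184 tested probe sets that fell and 20.2% that rose. All 43 log2 differences were negative, with a median of -0.93 and a range of -2.05 to -0.36, beside a median of 0.05 over all probe sets. In linear terms the median gene kept 56.2% of its stage 3.9 signal, and single genes kept 37.8% to 90.6%. In 37 genes both stage 6.0 arrays were below both stage 3.9 arrays, which holds for 30.8% of all probe sets. In 27 genes all 8 arrays of stage 6.0, of whatever genotype, were below both stage 3.9 arrays, beside 17.8% of all probe sets. A test for any difference among the 5 groups (limma's F test, adjusted) was passed by 18 genes, beside 40.5% of all probe sets.

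These directions are relative to the rest of the transcriptome. Scaled to the hybridisation controls, the median of all probe sets moved to 0.71 and that of the 43 genes to -0.13, so that 13 genes turned positive while all 43 stayed below the median of all probe sets. With quantile normalization 7 of the 43 turned positive, the median was -0.59, and 6 genes fell. The count also rested on single arrays: it was 7 without array 1 of wild type at stage 6.0, 29 without array 2 of that group and 8 without array 1 of wild type at stage 3.9. Of the 19 genes, ndhJ, ndhC, ndhA, petA and petL passed in 21 of 22 alternative settings, failing only with the scaling to the hybridisation controls. The calls of psaB, psaJ, psbC, atpE, atpF, ndhD and ndhI were each lost in 9 or more of the 22 settings, some of them settings that leave out 1 array.

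**Figure D1:**
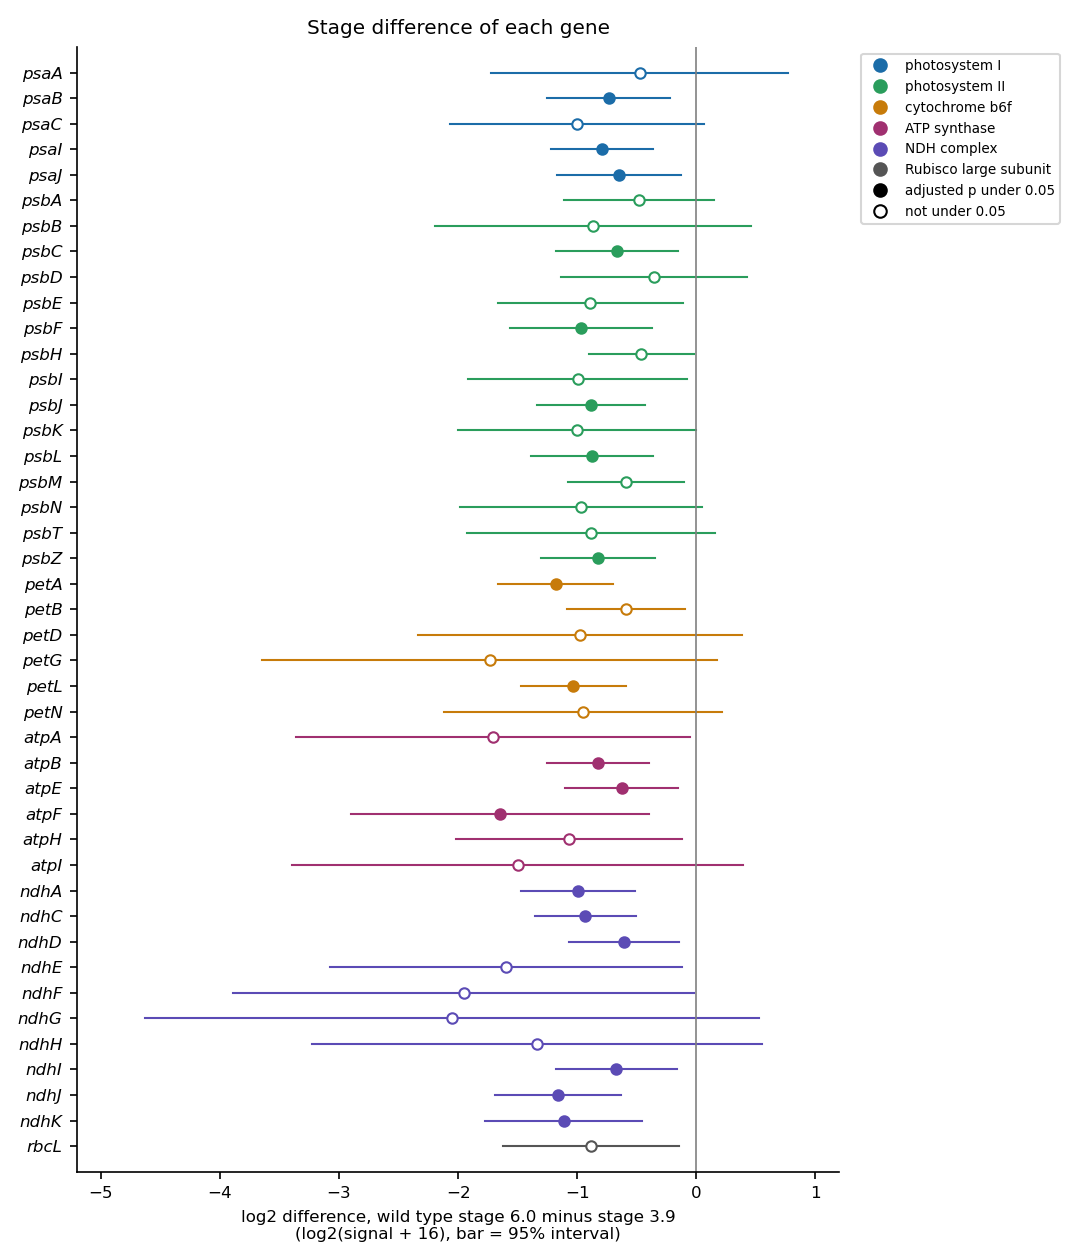
Difference between wild type leaves at stage 6.0 and at stage 3.9 for each of the 43 genes, on the log2(signal + 16) scale, with 95% intervals from limma. Filled points are the 19 genes with an adjusted p under 0.05; all 43 points lie below 0 on this scaling, although 13 lie above 0 when arrays are scaled to the hybridisation controls, and the widest intervals belong to genes whose stage 6.0 arrays lay far apart.

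Photosystem I fell in 3 of its 5 genes, psaB, psaI and psaJ, and its median difference was -0.74. The gene psaB, which encodes one of the paired core proteins of the reaction centre, had signals of 4186 and 3403 in NahG leaves, 3728 and 3395 in ein2 leaves and 2657 and 4355 in coi1 leaves. Wild type leaves gave 3045 and 3463 at stage 6.0, against 5676 and 5179 at stage 3.9. All 8 arrays of the later stage were thus below both of the earlier one, and the stage difference was -0.74 ± 0.23 (SE; limma adjusted p = 0.029). For psaI, a small membrane subunit, stage 6.0 wild type gave 1415 and 1462, against 2519 and 2490 at stage 3.9, a difference of -0.79 ± 0.19 (limma adjusted p = 0.0082). Its replicate arrays lay close together at both stages. The call of psaJ, another small subunit, was at the edge (-0.65, limma adjusted p = 0.0496) and was lost in 16 of 22 alternative settings. With the scaling to the hybridisation controls 4 of the 5 genes, psaB, psaI and psaJ among them, had positive stage differences.

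The partner of psaB in the core, psaA, behaved unlike it across arrays. Its signals were 447 and 368 in NahG, 915 and 381 in ein2, 646 and 411 in coi1 and 291 and 1268 in wild type at stage 6.0, against 950 and 770 in wild type at stage 3.9. One stage 6.0 array was below and the other above both stage 3.9 arrays, so the groups overlapped and the difference of -0.47 ± 0.56 did not pass (limma adjusted p = 0.55). The gene psaC, whose product carries the terminal iron-sulfur clusters, gave 511 and 1263 in wild type at stage 6.0, against 1651 and 1602 at stage 3.9, 54.5% of it on average, and did not pass either (limma adjusted p = 0.13).

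In photosystem II 5 of 15 genes fell (psbC, psbF, psbJ, psbL and psbZ), with a median difference of -0.88 over the 15. psbF encodes the beta subunit of the cytochrome at the heart of the complex. Its signal was 1677 and 1658 in NahG, 2058 and 1248 in ein2, 1251 and 1123 in coi1 and 1131 and 1825 in wild type at stage 6.0, against 3008 and 2653 at stage 3.9. No stage 6.0 array of any genotype reached the stage 3.9 arrays, and the stage difference was -0.97 ± 0.27 (limma adjusted p = 0.016). The inner antenna gene psbC fell by 0.67 and psbZ, psbL and psbJ, which encode small subunits, by 0.83, 0.88 and 0.89 on the log2 scale. The call of psbC turned to 0.14 with the scaling to the hybridisation controls and to 0.07 with quantile normalization.

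The genes of the reaction centre proteins were among those that did not pass. psbA, whose product D1 is the subunit that is damaged and replaced in light, gave 3068 and 2430 in NahG, 3408 and 3081 in ein2, 2059 and 4201 in coi1 and 3100 and 2593 in wild type at stage 6.0, against 4032 and 3906 at stage 3.9. Both stage 6.0 wild type arrays were lower than both stage 3.9 arrays and 71.7% of the stage 3.9 signal was kept, but the difference of -0.48 ± 0.29 was not called (limma adjusted p = 0.21), and 1 coi1 array was above all others. The D2 gene psbD showed the smallest stage difference of the 43 (-0.36 ± 0.35, limma adjusted p = 0.47), with 692 and 1097 in wild type at stage 6.0, against 1262 and 993 at stage 3.9. For psbM, a small subunit, replicates were tight: 3003 and 3044 at stage 6.0, against 4710 and 4413 at stage 3.9. Its difference of -0.59 ± 0.22 still missed the threshold (limma adjusted p = 0.058).

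In the cytochrome b6f complex 2 of 6 genes fell, and the median gene kept 53.0% of its stage 3.9 signal. petA, the gene of cytochrome f, had the smallest p of the 43. It gave 2162 and 1521 in NahG, 1499 and 1337 in ein2, 1521 and 1668 in coi1 and 1206 and 1560 in wild type at stage 6.0, against 3436 and 2849 at stage 3.9. The later wild type arrays kept 44.0% of the earlier signal, and the difference was -1.18 ± 0.22 (limma adjusted p = 0.0017). petL, a small subunit, fell by 1.03 (limma adjusted p = 0.0022), with 874 and 718 at stage 6.0, against 1830 and 1462 at stage 3.9. The cytochrome b6 gene petB gave 3057 and 3364 at stage 6.0, against 5118 and 4560 at stage 3.9, and missed the threshold (-0.59 ± 0.22, limma adjusted p = 0.061). The 3 others, petD, petG and petN, had standard errors of 0.53 to 0.87 and none passed.

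Of the 6 ATP synthase genes 3 fell, atpB and atpE of the catalytic head and atpF of the stator in the membrane part, and the median difference was -1.29. The beta subunit gene atpB gave 3493 and 3846 in wild type at stage 6.0, against 6775 and 6238 at stage 3.9 (-0.82 ± 0.19, limma adjusted p = 0.0066). For atpE, the epsilon subunit, signals were 4600 and 3718 in NahG, 4000 and 4234 in ein2, 3183 and 4704 in coi1 and 3417 and 3967 in wild type at stage 6.0, against 5986 and 5413 at stage 3.9. Its difference was -0.63 ± 0.21 (limma adjusted p = 0.041), and it turned to 0.18 with the scaling to the hybridisation controls. The largest change that passed among all 43 genes was that of atpF, -1.65 ± 0.57 (limma adjusted p = 0.041). Its 2 stage 6.0 wild type arrays gave 284 and 1149, against 1991 and 1692 at stage 3.9, so the first of the later arrays was far below the second. Without the first of those arrays atpF did not pass. The alpha subunit gene atpA kept the smallest share of its stage 3.9 signal, 37.8%, yet did not pass (-1.71 ± 0.75, limma adjusted p = 0.098).

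The NDH complex had 6 of 10 genes called: ndhI, ndhJ and ndhK of the peripheral arm and ndhA, ndhC and ndhD of the membrane arm. Its median difference was -1.14, and the median gene kept 48.0% of its stage 3.9 signal. ndhJ gave 1121 and 964 in NahG, 1257 and 748 in ein2, 551 and 578 in coi1 and 788 and 957 in wild type at stage 6.0, against 2108 and 1834 at stage 3.9. All later arrays were below the earlier ones, the coi1 arrays furthest, and the stage difference was -1.16 ± 0.24 (limma adjusted p = 0.0031). ndhI, which carries iron-sulfur clusters, gave 2918 and 2637 in NahG, 2594 and 2493 in ein2, 1661 and 2769 in coi1 and 2459 and 2850 in wild type at stage 6.0, against 4374 and 4077 at stage 3.9. Its change was smaller (-0.67 ± 0.23, limma adjusted p = 0.040) and turned to 0.13 with the scaling to the hybridisation controls. Differences of ndhA, ndhC and ndhK were -0.99, -0.93 and -1.11. The 4 genes that did not pass, ndhE, ndhF, ndhG and ndhH, had the larger estimates, -1.34 to -2.05, with standard errors of 0.67 to 1.17.

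rbcL, the gene of the large subunit of Rubisco, gave 715 and 398 in NahG, 1330 and 783 in ein2, 937 and 963 in coi1 and 695 and 1053 in wild type at stage 6.0, against 1925 and 1321 at stage 3.9. The stage difference of -0.89 ± 0.33 missed the threshold (limma adjusted p = 0.059), although both later wild type arrays were below both earlier ones. The second NahG array was the lowest of the 10.

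**Figure D2:**
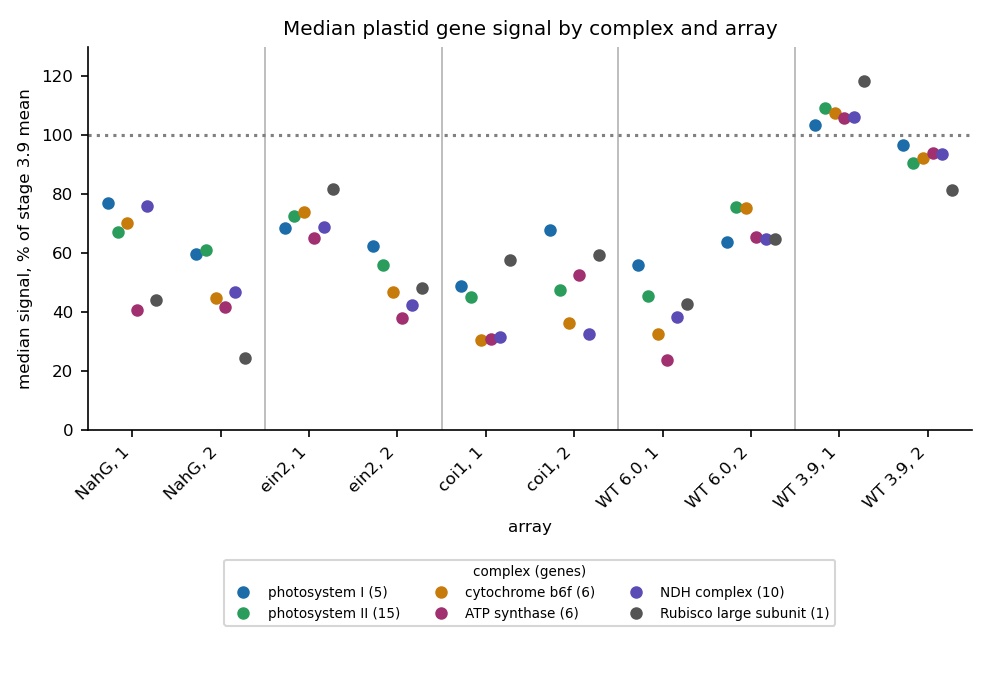
Median signal of the genes of each complex on each array, as a percentage of the mean of the 2 stage 3.9 arrays (linear axis from 0; 1 point for each complex and array, genes per complex in the legend). Over all 43 genes the medians were 69.1% and 50.1% for NahG, 70.2% and 45.1% for ein2, 42.5% and 47.8% for coi1 and 39.9% and 66.7% for wild type at stage 6.0.

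Replicate arrays of stage 6.0 disagreed for many of these genes, and within a group the disagreement ran mostly in 1 direction. Between the wild type arrays of stage 6.0, 19 of the 43 genes differed by more than 2-fold on the log2(signal + 16) scale, and array 2 was the higher in all 19, whereas 2.26% of the other tested probe sets differed that far. Array 2 was the higher for 39 of the 43 genes, beside 53.9% of the other tested probe sets. At stage 3.9 0 genes differed more than 2-fold, beside 4.49% of the other probe sets, and array 1 was the higher for 38, beside 52.3%. In NahG array 1 was the higher for 39 genes, beside 53.6% of the other probe sets, and in ein2 for 37, beside 54.6%. In coi1 array 2 was the higher for 33 genes, beside 45.2%. The arrays differed more than 2-fold for 9 genes in NahG, 13 in ein2 and 4 in coi1. The shares of the other probe sets that differed that far were 1.054% in NahG, 1.11% in ein2 and 0.329% in coi1. The residual SD of the fit had a median of 0.37 over the 43 genes, against 0.21 over all probe sets.

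The 19 genes were found in every complex with more than 1 gene: 2 in photosystem I (psaA, psaC), 6 in photosystem II (psbB, psbE, psbI, psbK, psbN and psbT), 3 in the cytochrome b6f complex (petD, petG, petN), 4 in the ATP synthase (atpA, atpF, atpH, atpI) and 4 in the NDH complex (ndhE, ndhF, ndhG, ndhH). They were picked out after their values had been seen, so the following is a description without a test. Of the 19, 1 gene passed the stage test, against 18 of the other 24; a wide gap between these arrays enters the residual SD of that test, so these counts follow largely from how the 19 were picked. Relative to stage 3.9 the median gene of the 19 kept 65.5% and 32.5% on the NahG arrays, 89.0% and 32.7% on the ein2 arrays, 17.3% and 26.6% on the coi1 arrays and 24.2% and 83.2% on the stage 6.0 wild type arrays. The median of the other 24 genes varied less, between 48.5% and 70.6% over the same 8 arrays. Over the 43 genes the residual SD was larger where the mean log2 signal was lower (Spearman rho -0.69). Genes of low signal such as ndhH, ndhF and atpI are among the 19, and the part of low signal in this split was not tested.

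ndhG, a membrane subunit of the NDH complex, shows the pattern at its widest. It gave 1494 and 154 in NahG, 1183 and 183 in ein2, 60.3 and 78.1 in coi1 and 78.3 and 1010 in wild type at stage 6.0, against 1401 and 1156 at stage 3.9. NahG, ein2 and wild type at stage 6.0 each held 1 array near the stage 3.9 level and 1 far below it, and both coi1 arrays were low. petG, a small cytochrome b6f subunit, ran alike, with 401 and 182 in NahG, 549 and 181 in ein2, 17.4 and 111 in coi1 and 47.3 and 456 in wild type at stage 6.0, against 580 and 538 at stage 3.9. atpA did not: 780 and 2722 in NahG, 2903 and 2252 in ein2, 896 and 3891 in coi1 and 761 and 3020 in wild type at stage 6.0, against 5172 and 4825 at stage 3.9. There the low arrays were the first of NahG, of coi1 and of wild type.

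Further genes of the 19 filled in the range between these. psbB, the other inner antenna gene of photosystem II, gave 1341 and 664 in NahG, 2578 and 626 in ein2, 504 and 678 in coi1 and 851 and 2241 in wild type at stage 6.0, against 2781 and 2312 at stage 3.9. The first ein2 and the second wild type array reached the stage 3.9 range or came near it, and both coi1 arrays stayed below every wild type array. psbK, a small subunit, gave 915 and 668 in NahG, 1097 and 597 in ein2, 332 and 594 in coi1 and 570 and 1643 in wild type at stage 6.0, against 1866 and 2051 at stage 3.9. There no later array reached the earlier ones.

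In the ATP synthase atpH, the gene of the ring subunit, gave 1196 and 828 in NahG, 2317 and 871 in ein2, 1222 and 1090 in coi1 and 899 and 1909 in wild type at stage 6.0, against 2977 and 2583 at stage 3.9. All 8 later arrays were lower. atpI, another membrane subunit, gave 174 and 53.8 in NahG, 467 and 67.0 in ein2, 50.7 and 54.1 in coi1 and 51.4 and 383 in wild type at stage 6.0, against 519 and 387 at stage 3.9. On 5 of the later arrays it stood between 50.7 and 67.0, near the minimum of 50 used for testing.

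In the NDH complex ndhF, a membrane subunit, gave 267 and 66.9 in NahG, 220 and 70.9 in ein2, 17.7 and 16.7 in coi1 and 7.55 and 212 in wild type at stage 6.0, against 235 and 304 at stage 3.9. ndhH, of the peripheral arm, gave 286 and 39.5 in NahG, 199 and 69.9 in ein2, 22.7 and 14.0 in coi1 and 11.3 and 162 in wild type at stage 6.0, against 183 and 140 at stage 3.9. For both genes the first NahG array was at or above the stage 3.9 level, and signals under 50 have no detection call to say whether they exceed background.

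The shared ndhB probe set, outside the 43, gave 594 and 225 in NahG, 781 and 510 in ein2, 74.7 and 44.3 in coi1 and 45.5 and 644 in wild type at stage 6.0, against 609 and 641 at stage 3.9. The 3 arrays with the low 5S ribosomal RNA signal are the 3 lowest for ndhB, for ndhG, for petG and for ndhF. They are so too for ndhE, ndhH, ndhK, petN, psaC, psbI, psbJ, psbK, psbN and psbT. For none of the rest of the 43 did this hold, atpA, atpI and petD among them. The 3 arrays were picked after their values had been seen, and the share over all probe sets was not counted. The tally is thus a description and not a result about these genes. A fit with the log2 5S signal as a covariate, chosen after seeing the data, left 9 genes that fell, 42 of 43 negative stage differences and a median of -0.58. The 5S signal differed most, within a group, between the 2 wild type arrays of stage 6.0 (3.62 and 599). The slope of the covariate thus rests mostly on that pair, and this fit is no separate check from leaving out 1 of them. The ratio of the 3′ to the 5′ actin control probe sets, a sign of RNA integrity, ran from 1.54 to 2.70 over the arrays, and as a covariate it left 8 genes that fell and a median of -0.82.

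**Figure D3:**
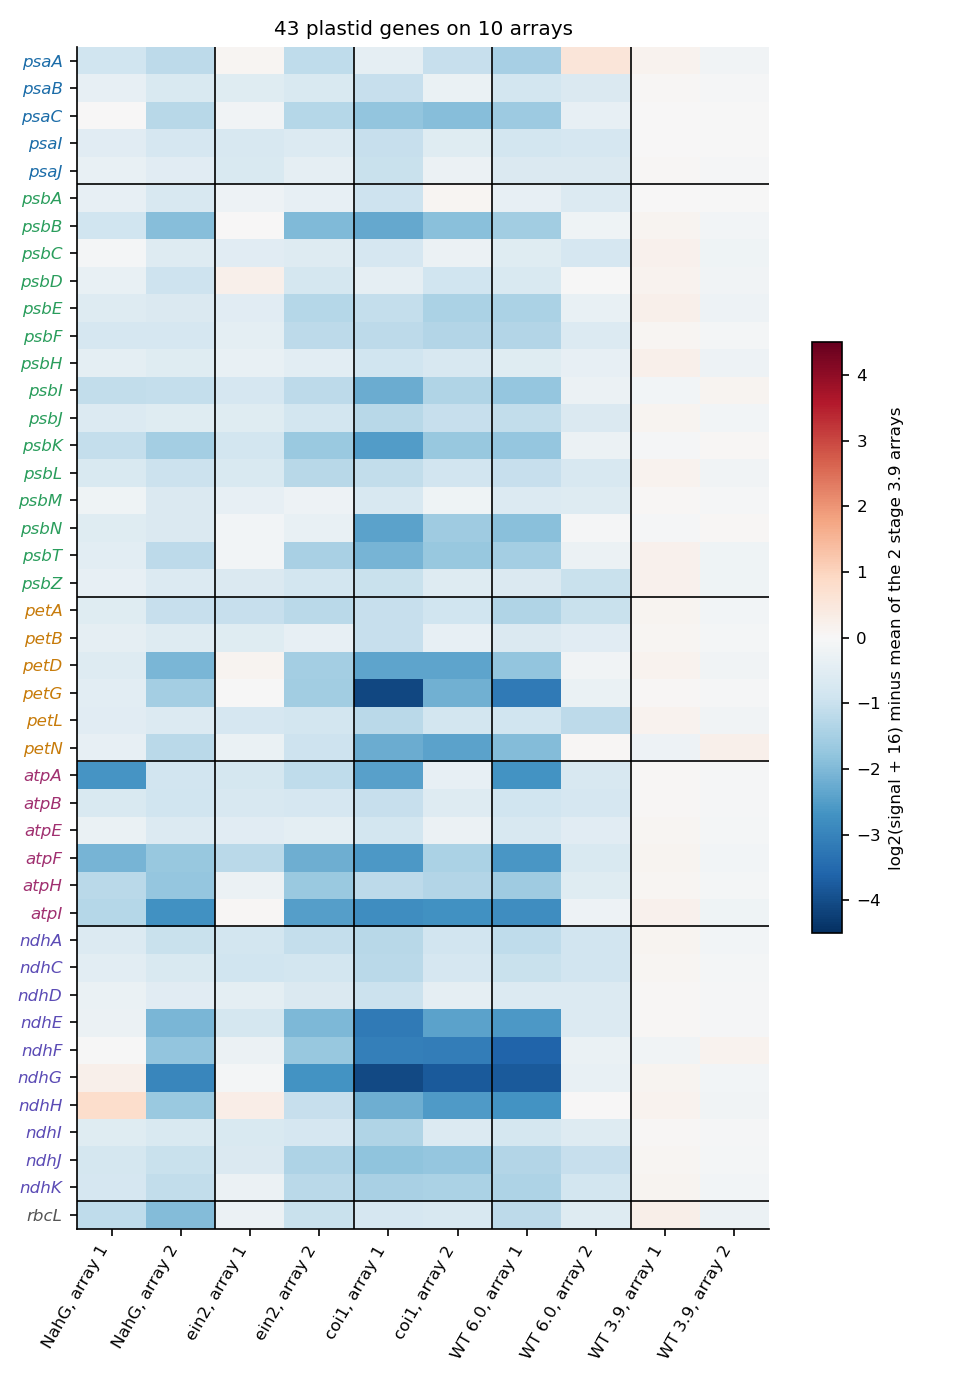
Heat map of the 43 genes (rows, by complex) on the 10 arrays (columns), as log2(signal + 16) minus the mean of the 2 stage 3.9 arrays of the same gene. Dark cells gather on array 1 of wild type at stage 6.0, on array 2 of NahG and of ein2 and on both coi1 arrays, in the same rows, such as ndhE, ndhF, ndhG, petD and atpI.

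Genes that textbook maps put on 1 transcription unit did not always share this behaviour. Both genes of atpB-atpE, all 3 of ndhC-ndhK-ndhJ and psaI with petA fell with age, and their stage 6.0 wild type arrays differed by at most 0.57 on the log2 scale. All 4 genes of atpI-atpH-atpF-atpA differed by 1.07 to 2.57 between those arrays. In psbE-psbF-psbL-psbJ the range was 0.29 to 1.10, and 3 of the 4 genes fell.

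Other units were mixed. In psbB-psbT-psbH-petB-petD the gap between the stage 6.0 wild type arrays ran from 0.14 to 1.62 (log2), with psbH and petB at the low end and petD at the high end, and 0 of the 5 genes fell. In psaA-psaB it was 2.06 for psaA and 0.18 for psaB. The unit ndhH-ndhA-ndhI-ndhG-ndhE-psaC-ndhD held gaps of 0.01 to 3.44, and the 3 of its 7 genes that fell were ndhA, ndhI and ndhD, whose arrays lay close together.

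**Figure D4:**
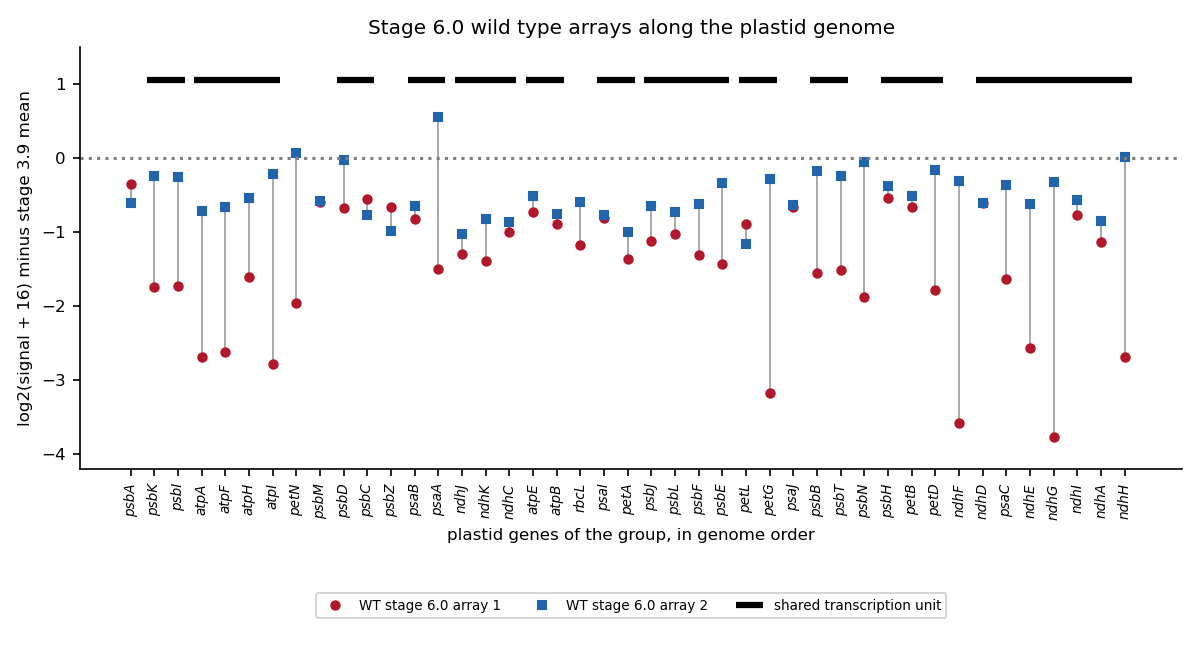
The 2 stage 6.0 wild type arrays for each of the 43 genes, as log2(signal + 16) minus the stage 3.9 mean, in the order of the genes on the plastid genome (RefSeq TAIR10.1, used for order only). Bars on top join genes of 1 transcription unit, with the unit of psbB shown in 2 pieces on either side of psbN; long and short gaps between the arrays stand next to each other within the units of psaA, petL, psbB and ndhD.

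At stage 6.0 each genotype was compared with wild type of the same stage, and all 3 comparisons share the same 2 wild type arrays, the pair with the most genes over 2-fold apart. None of the 43 genes passed in NahG leaves (beside 9.11% of all probe sets called in either direction), in ein2 leaves (0.123%) or in coi1 leaves (1.01%), by limma's adjusted p. At an unadjusted p under 0.05 limma counted 1 gene in NahG (beside 23.1% of all probe sets), 0 in ein2 (10.1%) and 5 in coi1 (14.3%), all below the share over all probe sets. The 95% interval of a single difference had a median half-width of 0.66 on the log2 scale, so a missing call does not show that a gene was unchanged.

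In NahG 30 of the 43 differences were positive and the median was 0.17, beside 0.01 over all probe sets, but this direction did not hold in every setting. Positive differences numbered 25 with quantile normalization (median 0.0174, beside 0.0316 over all probe sets), 21 with the actin covariate and 16 with the 5S covariate, where the median was -0.0428. Without array 1 of wild type at stage 6.0 they numbered 16 (median -0.13) and without array 2 of that group 41 (median 0.40). All 10 NDH genes were positive, with a median of 0.30 and values of 0.07 to 1.06, but 1 turned negative with quantile normalization or the scaling to the hybridisation controls, 2 with the actin covariate and 6 with the 5S covariate. Without array 1 of wild type at stage 6.0, 6 of the 10 were negative. In 8 genes, ndhC, ndhD, ndhJ, petL, psaI, psaJ, psbJ and psbZ, both NahG arrays were above both wild type arrays, beside 26.6% of all probe sets. petL was the gene with an unadjusted p under 0.05: it gave 1133 and 1068 in NahG, against 874 and 718 in wild type (0.47 ± 0.20, limma adjusted p = 0.19). rbcL had the lowest value, -0.66 ± 0.33 (limma adjusted p = 0.27), and its NahG and wild type arrays overlapped. Markers moved on the same arrays. The root marker PYK10 had mean signals of 107 in NahG and 20.9 in wild type. It met the signal condition only through the NahG arrays, so no p-value is given for it. The leaf marker LHCB4.2 was higher in NahG than in wild type by 1.33 (log2, limma adjusted p = 0.030). LHCB4.3 differed by -1.10 (limma adjusted p = 0.030), and RCA and LHCB4.1 did not pass. The part of these markers in the differences of the plastid genes was not tested.

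In ein2 36 differences were positive, beside 6202 of all 12184 probe sets. The median was 0.12, beside 0.01 over all probe sets, and the range -0.26 to 0.97. Without array 1 of wild type at stage 6.0, or with the 5S covariate that rests mostly on the same pair, the medians were -0.17 and -0.14. With the scaling to the hybridisation controls 9 were positive, while the median of all probe sets moved to -0.25, and with quantile normalization 23 were. Both ein2 arrays were above both wild type arrays in 5 genes, atpB, atpE, petL, psaI and psbM, beside 20.1% of all probe sets. The smallest adjusted p of the 43 was 0.62 (limma).

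In coi1 30 differences were negative, beside 5454 of all 12184 probe sets, and the median was -0.27, beside 0.04 over all probe sets. The 26 other plastid genes with a probe set of their own ran alike, with 19 negative and a median of -0.25. With the 5S covariate 19 were negative and the median was 0.0468, and without array 2 of wild type at stage 6.0 the count was 20 and the median 0.0198. These are not 2 separate checks, since the 5S covariate rests mostly on the gap between the same wild type arrays. Both coi1 arrays were low in 5S. All 10 NDH genes were negative, with a median of -0.47 and values of -1.88 to -0.06, and stayed so under each of the scalings tried, but with the 5S covariate 5 were positive. Without array 2 of wild type at stage 6.0, 4 of the 10 (ndhA, ndhC, ndhF and ndhH) were positive, and the difference of ndhG was -0.15. Both coi1 arrays were below both wild type arrays in 9 genes, ndhG, ndhJ, ndhK, petD, petN, psaC, psbB, psbH and psbT, beside 20.2% of all probe sets. The genes with an unadjusted p under 0.05 were ndhJ, petD, petN, psbK and psbN. petN, a small cytochrome b6f subunit, gave 119 and 104 in coi1, against 147 and 653 in wild type (-1.38 ± 0.53, limma adjusted p = 0.27), so the difference from the first wild type array was small. ndhJ gave 551 and 578 in coi1, against 788 and 957 in wild type (-0.61 ± 0.24, limma adjusted p = 0.28), with both pairs tight. rbcL, with 937 and 963 in coi1, against 695 and 1053 in wild type, overlapped. Of the markers LHCB4.3 was higher in coi1 than in wild type by 1.41 (log2; limma adjusted p = 0.040), while the other 3 leaf markers and PYK10 did not pass; its part was not tested.

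**Figure D5:**
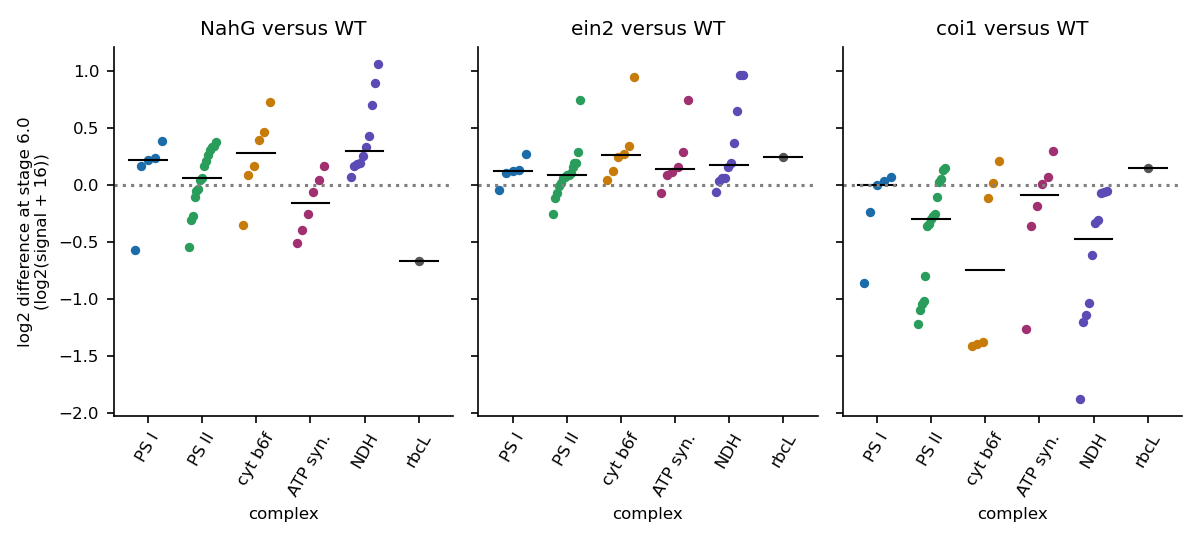
Log2 difference of each of the 43 genes from stage 6.0 wild type in NahG, ein2 and coi1 leaves, by complex (points are genes, black lines medians, scale log2(signal + 16)). No point passed the test; the NDH genes lie above 0 in NahG and below 0 in coi1 on this scaling, while 1 of the NDH genes in NahG changes side with quantile normalization or the scaling to the hybridisation controls, 6 without array 1 of wild type at stage 6.0, and 4 in coi1 without array 2.

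The genotypes were also compared with each other. These differences do not use the wild type arrays, but the fit estimates the spread over all 5 groups, so the unequal wild type pair still enters their standard errors. Between NahG and coi1 1 gene was called, ndhJ, which was higher in NahG (1121 and 964, against 551 and 578 in coi1, 0.86 ± 0.24, limma adjusted p = 0.043), beside 5.03% of all probe sets called higher. That call was lost without any 1 of these 4 arrays. The ndhJ call was also lost without a filter, with quantile normalization, with the array number as a replicate block and with the actin or the 5S covariate. With the scaling to the hybridisation controls 8 genes were called higher in NahG, ndhJ not among them. When only these 2 groups were fitted 11 genes were higher and 1 lower. In 20 genes both NahG arrays were above both coi1 arrays, beside 24.9% of all probe sets, 7 of them NDH genes, 8 of photosystem II and 4 of the cytochrome b6f complex. rbcL alone lay wholly below, beside 32.7% of all probe sets, with 715 and 398 in NahG, against 937 and 963 in coi1 (-0.81 ± 0.33, limma adjusted p = 0.16). The median difference was 0.37, beside 0.31 over the 26 other plastid genes and -0.05 over all probe sets. It turned to -0.10 with the 5S covariate, whose slope rests mostly on the wild type pair of stage 6.0.

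Between ein2 and coi1 0 genes were called by limma, beside 0.706% of all probe sets, and 10 had an unadjusted p under 0.05, beside 16.1%. Genes called higher in ein2 were 2 without either array of wild type at stage 6.0, 4 with the scaling to the hybridisation controls and 8 when only these 2 groups were fitted. Both ein2 arrays were above both coi1 arrays in 18 genes, beside 22.4% of all probe sets. The smallest adjusted p was that of psbN (1.79 ± 0.46, limma adjusted p = 0.11), whose product is known as an assembly factor of photosystem II, with 377 and 323 in ein2, against 64.1 and 123 in coi1. The median of 0.34, beside 0.33 over the 26 other plastid genes and -0.03 over all probe sets, turned to -0.22 with the 5S covariate. Between NahG and ein2 0 genes were called by limma, beside 7.53% of all probe sets, the median was -0.03 (0.17 with the scaling to the hybridisation controls, as for all probe sets), and rbcL was the gene with an unadjusted p under 0.05, beside 19.7% of all probe sets (715 and 398 in NahG, against 1330 and 783 in ein2, -0.91 ± 0.33, limma adjusted p = 0.15).

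Partners encoded outside the plastid give part of the setting for the stage result. A probe set of their own was present for 2 of 13 nuclear genes found for photosystem I, 2 of 12 for photosystem II and 3 of 17 for NDH. It was 2 of 4 for the ATP synthase, 1 of 5 for Rubisco and 0 of 8 for cytochrome b6f and electron carriers. Of the 9 tested nuclear genes for subunits or helpers of these complexes 8 fell with age, beside 17.2% of all probe sets. Their median difference was -1.72. PSAN and PSAE-1, peripheral subunits of photosystem I, differed by -3.17 and -2.15, NdhN and NdhL of the NDH complex by -1.72 and -1.82, ATPC1, the gamma subunit of the ATP synthase, by -1.13, and RCA, the Rubisco activase, by -0.91. NdhS, the ferredoxin-binding subunit of the NDH complex, was the gene that did not pass (-0.31, limma adjusted p = 0.21). None of the 9 differed more than 2-fold between the stage 6.0 wild type arrays. In NahG PSAN and PSAE-1 were higher than in wild type by 1.56 and 0.85 and passed, beside 440 of all 12184 probe sets called higher. The other 7 nuclear genes did not pass, and neither did any plastid gene of photosystem I. In coi1 all 9 nuclear genes were above wild type (median 0.32, none passed), beside 6730 of all 12184 probe sets. All 10 plastid NDH genes were below it, though not in every setting. The difference between nuclear and plastid genes was not tested. The 26 other plastid genes with a probe set of their own fell in 17 cases, beside 17.2% of all probe sets, with a median of -1.09. Of these 26, 11 differed more than 2-fold between the stage 6.0 wild type arrays. Against wild type of stage 6.0 their median was -0.02 in NahG, with 13 positive and 13 negative, and 0.20 in ein2, with 17 positive and 9 negative. Over the 5 tested genes of the mitochondrial genome the median stage difference was 0.56, and 1 of them rose, beside 20.2% of all probe sets.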

How the data were processed

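The authors deposited intensity values made with MAS5, per the submitters' processing notes; no source used here gives its version. They are linear signals without detection calls. No source used here says how RNA was primed, and plastid RNAs mostly lack long poly(A) tails. Leaving out the 64 control probe sets, signals were scaled so that every array had a trimmed mean of 100 (2% trimmed). The 12184 probe sets with at least 50 on 2 or more arrays were fitted as log2(signal + 16) with limma 3.58.1 (lmFit, eBayes with trend; R 4.3.3) over 10 arrays in 5 groups. The fit had 5 residual and 5.74 prior degrees of freedom. Benjamini-Hochberg adjustment ran over all probe sets within each of 7 comparisons. The number of arrays limits the precision, and the median standard error of a difference was 0.30 for the 43 genes and 0.21 over all probe sets. The added 16 shrinks folds of low signals.

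Probe sets were named through the platform's annotation and RefSeq TAIR10.1, which also gave the gene order; no sequence or coordinate is given. No gene had more than 1 probe set of its own. For each complex the gene of highest mean signal and the largest change that passed were named, with psbA and rbcL; other genes were named after their values were seen. The members and lists were chosen with earlier results of these data known. The wild type arrays that share a stock had deviations from their group means that correlated at 0.0762 over all probe sets (0.237 over the 43 genes, 2 stocks), so they were not taken as pairs. The code of the fit was run on simulated data with independent noise for each probe set and array. Those data lack the shared shifts between arrays seen in the 43 genes, so the run says nothing about them. Figures were drawn with matplotlib 3.10.9 in python 3.11.15, and tables made with numpy 2.4.6 and pandas 2.3.3.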

Additional observations from a re-analysis of the deposited data

How the results depend on the processing

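Adding 1 or 64 before logs, a filter at 100, the deposited scaling, eBayes without trend and fitting only the groups compared left the stage count within 1.5 times 19 (16 to 20 genes). Without a filter 11 genes fell and 0 were higher in NahG than in coi1. With quantile normalization those counts were 6 and 0, the stage median was -0.59, and psbC (0.0720), atpE (0.0716), psaJ (0.00907) and ndhI (0.0284) turned positive. Scaled to the hybridisation controls 3 genes fell (atpA, ndhF and ndhG, none of the 19), the stage median was -0.13, and psbC (0.14), psaB (0.0686), atpE (0.18), psaI (0.00838), psaJ (0.15), ndhD (0.20) and ndhI (0.13) turned positive; 1 gene was lower in coi1 than in wild type, and 8 in NahG and 4 in ein2 were higher than in coi1. With only the 2 groups compared 11 genes were higher and 1 lower in NahG than in coi1, and 8 were higher in ein2 than in coi1. The actin ratio as a covariate left 8 genes at the stage comparison and 0 in NahG against coi1. The 5S ribosomal RNA covariate left 9 and 0, a stage median of -0.58, and medians of -0.10 for NahG against coi1 and -0.22 for ein2 against coi1. With the stock as a replicate block 19 genes fell, 16 of them the same, and with the array number as a replicate block, which the labels tie to the stock for wild type and to nothing for NahG and coi1, 0 were higher in NahG than in coi1. The causes of these shifts were not tested. Leaving out 1 array gave 7 to 29 genes that fell and stage medians of -1.31 to -0.58. It also gave 0 to 2 higher genes in NahG against wild type, medians of -0.17 to 0.50 for ein2 and -0.62 to 0.0198 for coi1 against wild type with 0 to 2 lower genes in coi1, 0 to 4 higher genes in NahG and 0 to 2 in ein2 against coi1, and medians of 0.22 to 0.72 for ein2 against coi1. A lone array was then assumed to vary like the other groups. Averaging several probe sets of a gene was not run, since no gene had more than 1. With 2 arrays per group and no detection calls, low signals such as those of ndhH and ndhF are the least certain.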
